A study of Mus musculus with 35 samples.

Results

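Potassium channels and their accessory subunits were followed through 6 mouse tissues as the 94 protein-coding genes whose symbol starts with Kcn, out of 21899 protein-coding genes with counts. The study sequenced RNA of adult C57BL/6J mice in order to define and quantify transcripts, with short-read RNA-seq for the counts and long-read Iso-seq for the gene models. The 29 RNA-seq libraries formed 10 groups, namely brain, cerebellum, heart, colon and gonad of females and of males, each of 3 libraries apart from male heart with 2. The gonads are called ovary and testis here. No animal carried a transgene or received a treatment according to the labels, and the labels do not say whether the replicates of a group came from separate animals, so that all p-values below measure the spread between these libraries.

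Potassium channels let potassium ions leave or enter the cell and thereby set the resting potential, end the action potential and tune the firing rate of neurons, the beat of the heart and the contraction of smooth muscle. The pore is built from voltage-gated subunits (Kv1 to Kv4, the EAG and KCNQ families), from inward rectifiers (Kir, *Kcnj* genes), from 2-pore-domain channels (K2P, *Kcnk* genes) that carry leak currents, or from channels opened by calcium, sodium or pH. Modifier subunits (*Kcnf*, *Kcng*, *Kcns* and *Kcnv* genes) do not form a channel alone but alter Kv2 channels, and accessory subunits (*Kcnab*, *Kcne*, *Kcnip* and *Kcnmb* genes) change gating or transport to the membrane.

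Levels are given as FPKM, the usual unit of counts scaled to exon length and library total, and fold changes as log2 differences of edgeR on TMM-scaled counts. The total count lay between 11742417 and 36194255 per library. The tissue labels were checked against marker genes. The summed FPKM of 5 neuronal markers was 1074 to 1547 in brain and below 9 in every library outside brain and cerebellum, that of 4 cardiomyocyte markers was 4360 to 9990 in heart, that of 4 colon epithelium markers was 8108 to 15840 in colon, and that of 4 germ cell markers was 8441 to 9389 in testis. The ovary list was less clean, since its marker *Gdf9* was 126.5 to 240.6 FPKM in heart and only 23.18 to 40.7 FPKM in ovary. Of its other markers, *Foxl2* was 35.15 to 53.87 FPKM in ovary and at most 0.6923 FPKM elsewhere. *Inha* was 71.0 to 117.3 FPKM in ovary and at most 8.087 FPKM elsewhere. Female heart replicate 3 stood apart from the other hearts: the summed FPKM of 3 atrial markers was 4893 there against a median of 139.7 over the 5 hearts, and its TMM factor was 1.12 against 0.604 to 0.712. In bulk tissue, fewer cells of a type and less RNA per cell cannot be told apart.

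The potassium channel genes were expressed most broadly in the nervous system. Of the 94 members, 84 reached a mean of at least 1 FPKM in some tissue, and the mean was at least 1 FPKM for 68 members in brain, 58 in cerebellum, 22 in heart, 26 in colon, 28 in ovary and 27 in testis. The highest mean was found in brain for 29 members, in cerebellum for 29, in heart for 12, in colon for 10, in testis for 10 and in ovary for 4. Summed over all members, the level ranged from 799.6 to 947.6 FPKM in the brain libraries and from 818.1 to 913.6 FPKM in the cerebellum libraries, against 185.0 to 254.1 FPKM in heart, 155.6 to 195.6 FPKM in colon and 154.4 to 174.8 FPKM in ovary. Testis reached 541.2 to 572.7 FPKM, but the 5 leading genes made up 88.1% of its mean sum, most of it from the *Kcnk4* locus described further on. The 5 leading members made up 24.6% of the sum in brain (*Kcnab2*, *Kcnj10*, *Kcnk1*, *Kcnip2*, *Kcnab1*) and 63.5% in heart (*Kcnip2*, *Kcnk3*, *Kcnj11*, *Kcnj5*, *Kcng2*). The tissue specificity index tau, which is 0 for an even level and 1 for a gene seen in a single tissue, had a median of 0.853 over the 84 members and 0.68 over the 16552 protein-coding genes with at least 1 FPKM, as a description. It ran from 0.368 for *Kcnrg* to 0.996 for the *Kcnk4* locus, which also holds *Catsperz*, with 24 members at 0.9 or more.

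**Figure D1:**
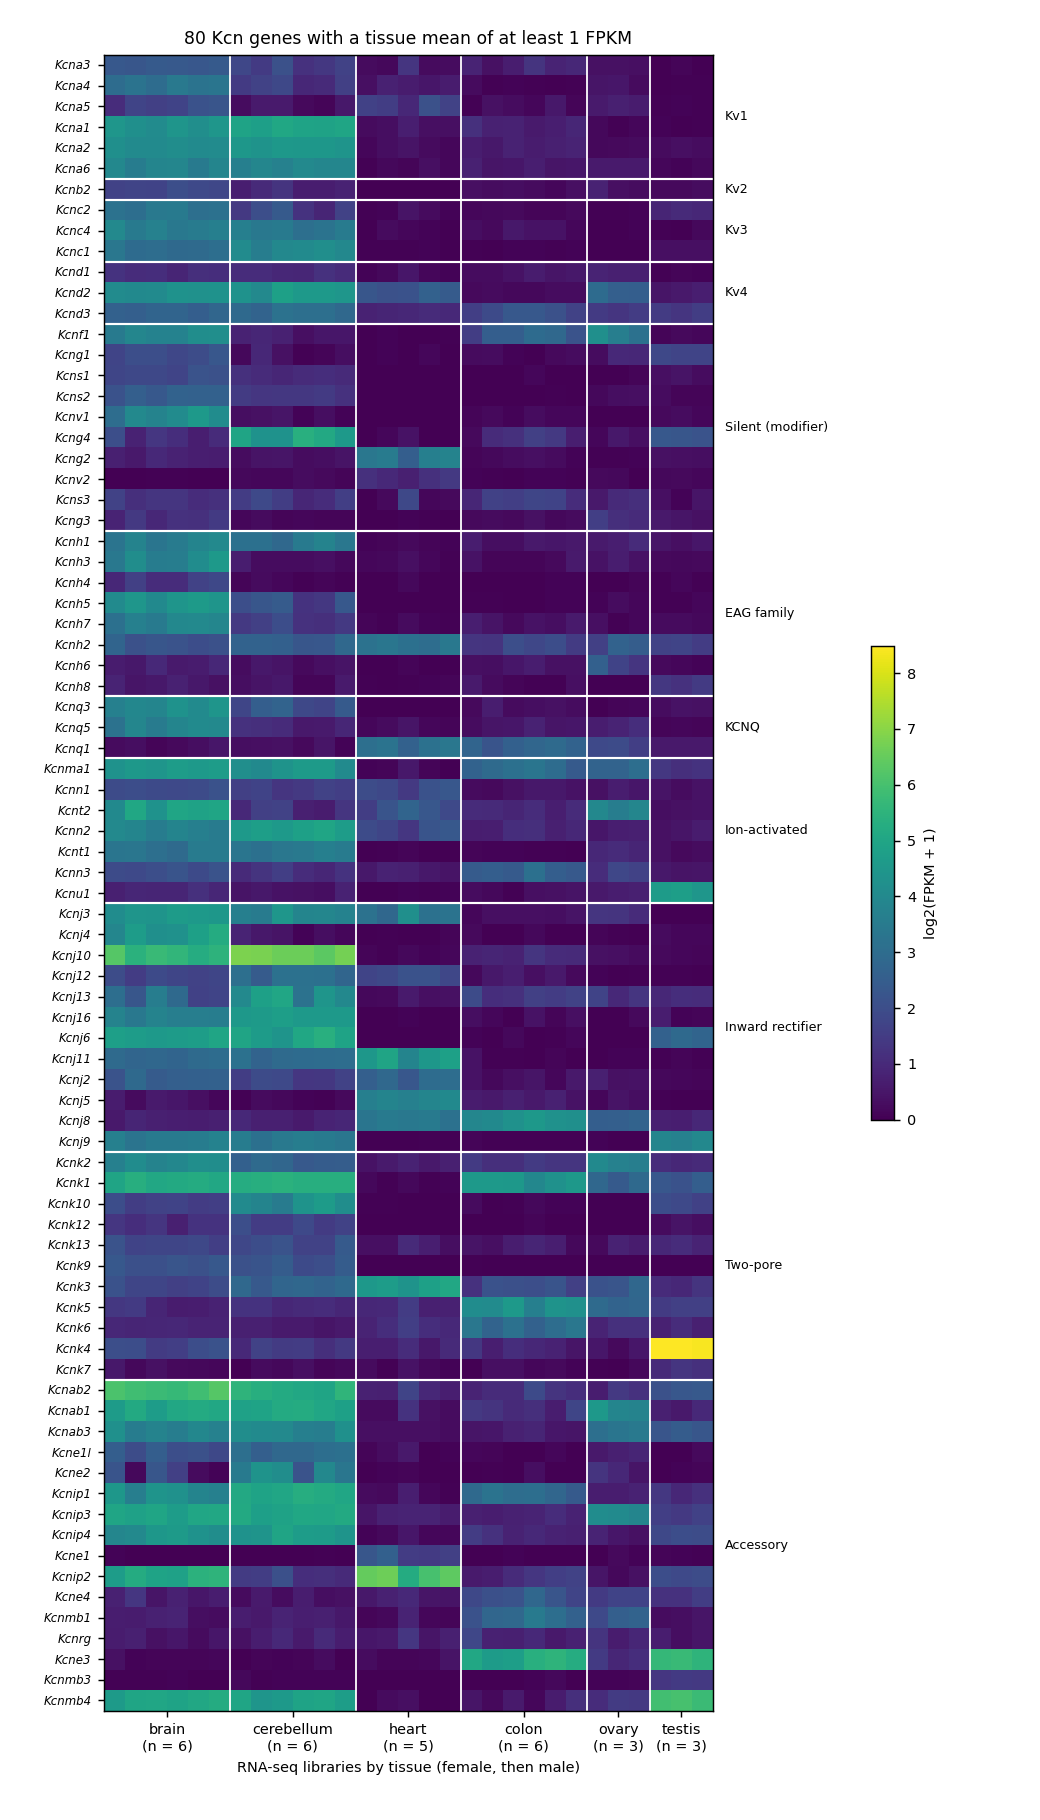
Level of 80 of the 84 potassium channel genes with a tissue mean of at least 1 FPKM, as log2(FPKM + 1), in each of the 29 libraries (columns, grouped by tissue) and ordered by role class (rows). Most rows are brightest (highest) in the 12 brain and cerebellum libraries, and short blocks stand out in heart, colon and testis.

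Long reads gave the 5′ ends of transcripts of these genes. Iso-seq transcripts were assigned to 49 of the 94 members (52.1%, against 58.7% of protein-coding genes), and *Kcnab2*, a cytoplasmic beta subunit of Kv1 channels, had the most with 18 transcripts. The somatic tissues of each sex were pooled for Iso-seq, so the transcripts do not say in which tissue a start was used. RefSeq (GRCm38.p6) gave 94 promoter windows, from 250 bases before to 50 bases after an annotated start, for 69 members. Of the 33 members with both a window and Iso-seq transcripts, 25 had a transcript start inside a window and 16 had it within 20 bases of the annotated start. Among these 16, the 10 that the tests below called higher in cerebellum than in brain, or above each other tissue in heart, colon or testis, are printed to show the sequence at which their RNA began. Each runs 5′ to 3′ on the gene's strand from 100 bases before the annotated start, and capitals mark the first base of an Iso-seq transcript.
Kcne4 (chr1:78816811-78816930, plus strand): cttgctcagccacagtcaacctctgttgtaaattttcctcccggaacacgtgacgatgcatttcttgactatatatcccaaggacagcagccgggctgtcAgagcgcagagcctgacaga
Kcnj13 (chr1:87394709-87394829, minus strand): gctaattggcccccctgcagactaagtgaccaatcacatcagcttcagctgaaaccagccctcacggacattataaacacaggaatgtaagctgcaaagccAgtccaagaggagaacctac
Kcnj9 (chr1:172329319-172329422, minus strand): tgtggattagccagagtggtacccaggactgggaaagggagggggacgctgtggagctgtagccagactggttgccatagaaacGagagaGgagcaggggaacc
Kcnj10 (chr1:172341110-172341239, plus strand): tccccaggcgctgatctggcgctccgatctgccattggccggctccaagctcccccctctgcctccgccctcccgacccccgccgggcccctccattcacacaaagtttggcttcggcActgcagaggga
Kcnh2 (chr5:24329580-24329691, minus strand): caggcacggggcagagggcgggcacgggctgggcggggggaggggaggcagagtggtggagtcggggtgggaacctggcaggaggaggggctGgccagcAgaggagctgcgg
Kcne3 (chr7:100176570-100176689, plus strand): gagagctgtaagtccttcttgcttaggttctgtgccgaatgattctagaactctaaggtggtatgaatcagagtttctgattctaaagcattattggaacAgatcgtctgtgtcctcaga
Kcnj2 (chr11:111066064-111066181, plus strand): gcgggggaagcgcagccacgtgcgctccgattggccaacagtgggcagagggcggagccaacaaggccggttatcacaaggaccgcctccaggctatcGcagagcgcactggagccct
Kcnk5 (chr14:20181763-20181882, minus strand): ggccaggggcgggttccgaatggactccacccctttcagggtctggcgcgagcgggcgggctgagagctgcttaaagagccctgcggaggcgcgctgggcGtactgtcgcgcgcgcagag
Kcne2 (chr16:92292289-92292408, plus strand): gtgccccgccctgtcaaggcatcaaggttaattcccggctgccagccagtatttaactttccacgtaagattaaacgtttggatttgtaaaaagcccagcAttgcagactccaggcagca
Kcnip2 (chr19:45816054-45816163, minus strand): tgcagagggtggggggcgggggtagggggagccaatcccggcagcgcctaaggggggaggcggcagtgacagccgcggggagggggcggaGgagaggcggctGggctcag

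The windows differed in their core motifs. The core of the TATA box, searched on both strands as the letters TATAAA, occurred in 5 of the 94 windows (5.32%), those of *Kcnab1*, *Kcnj13*, *Kcnj15*, *Kcnj16* and *Kcnj9*, against 13.6% of all 32851 windows of this length. In *Kcnj13* the motif began 29 bases before the annotated start. The core of the GC box, searched as the letters GGGCGG, occurred in 45 of the 94 windows (47.9%) against 35.7% of all windows. A match describes the sequence and does not show that a factor binds there.

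Nervous tissue against the other tissues was the contrast with the most called members. The mean of brain and cerebellum was compared with the mean of heart, colon, ovary and testis by the quasi-likelihood test of edgeR, p-values were adjusted over 29907 genes by the method of Benjamini and Hochberg, and genes with an adjusted p below 0.05 were called. Of the 90 members that passed the filter on low counts, 69 (76.7%) were higher in the nervous tissues, where 34.8% of all genes tested were, and 12 (13.3%) were lower, where 27.5% of all genes were. Among protein-coding genes tested, 40.2% were higher and 32.9% lower. The median log2 difference was 3.49 over the 90 members and -0.144 over all genes. The contrast averages over tissues, so a called gene need not be highest in the nervous tissues. *Kcnip2*, *Kcnj2* and *Kcnj11* were also called above each other tissue in heart. The same held for *Kcnn3* in colon, *Kcnh6* in ovary and *Kcnh8*, *Kcnj9* and *Kcnmb4* in testis. For 34 of the 69, every nervous library was above every other library, a share not computed over all genes. *Kcna10*, *Kcnj1*, *Kcnk15* and *Kcnk16* did not pass the filter.

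By role, 15 of 16 tested Kv1 to Kv4 genes were higher in the nervous tissues, as were 7 of 8 EAG genes, 4 of 5 KCNQ genes, 11 of 14 tested Kir genes, 7 of 12 tested K2P genes, 6 of 8 calcium-, sodium- or pH-activated genes, 8 of 10 modifier subunits and 11 of 17 accessory subunits. *Kcnrg* was counted among these 17. The 12 lower genes were the Kir genes *Kcnj5*, *Kcnj8* and *Kcnj15*, the K2P genes *Kcnk4*, *Kcnk5* and *Kcnk6*, the accessory subunits *Kcne3*, *Kcne4* and *Kcnmb1*, the calcium-activated *Kcnn4*, the modifier *Kcnv2* and *Kcnq1*. Of these, *Kcnk4* is counted at a locus joined with *Catsperz* that was high in testis. For this locus brain was higher than heart (log2 difference 1.39), colon (1.755) and ovary (3.407).

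The difference was widest for *Kcnk9*, the acid-sensitive leak channel TASK-3. Its level was lowest 3.21, median 3.50 and highest 4.08 FPKM in brain and 2.74, 3.44 and 4.57 FPKM in cerebellum, and at most 0.0346 FPKM in the 17 other libraries. The groups did not overlap, and the log2 difference was 9.53 (SE 0.247, adjusted p = 1.24e-21). *Kcnj6* encodes GIRK2, a G protein-gated rectifier of neurons, and ranged from 22.4 to 30.9 FPKM in brain (median 25.3) and from 19.97 to 40.1 FPKM in cerebellum (median 29.8). Testis had 5.24, 6.46 and 5.64 FPKM, so the nervous tissues were higher without overlap and testis came next (log2 difference 8.78, SE 0.208, adjusted p = 3.08e-21).

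*Kcnj10* encodes Kir4.1, the rectifier through which glia clear potassium. It ranged from 37.2 to 75.8 FPKM in brain (median 45.8) and from 81.5 to 111 FPKM in cerebellum (median 100), against at most 1.48 FPKM elsewhere, and led the Kir family (log2 difference 8.25, SE 0.145, adjusted p = 1.34e-24). *Kcnq3*, a KCNQ subunit of neurons, ranged from 11.9 to 20.7 FPKM in brain (median 15.0) and from 2.32 to 5.54 FPKM in cerebellum (median 3.41), and had no count in any of the 5 heart libraries. It was higher in brain than in cerebellum, without overlap (log2 difference 2.26, SE 0.26, adjusted p = 4.97e-07). *Kcnq3* was counted only in 1 exon of 4499 bases at its 3′ end (chr15:65986882-65991380). Its levels, and its absence in heart, are those of this exon.

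*Kcnq1*, the pore of a slow cardiac and epithelial channel, ran the other way. It was 7.67, 8.36 and 5.20 FPKM in the female hearts and 7.92 and 9.32 FPKM in the male hearts, lowest 3.59 and highest 6.63 FPKM in colon, and 2.64, 2.87 and 1.99 FPKM in ovary. No brain or cerebellum library exceeded 0.43 FPKM, just below the lowest testis library at 0.49 FPKM (log2 difference -3.63, SE 0.212, adjusted p = 3.21e-14). The antisense RNA *Kcnq1ot1* overlaps it, and how its counts were split by strand is not given in the sources used here.

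Brain and cerebellum differed in which channel genes they expressed. Of the 90 members, 37 (41.1%) were higher in brain, where 15.3% of all genes tested were, and 14 (15.6%) were higher in cerebellum, where 10.8% of all genes were. Among protein-coding genes tested, 20% were higher in brain and 13.1% in cerebellum, the latter near the share of the members. The brain-high genes included 7 of 10 modifier subunits, 6 of 8 EAG genes and 3 of 5 KCNQ genes. No Kv4 gene was called in either direction.

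*Kcnj4*, the strong inward rectifier Kir2.3, ranged from 13.8 to 36.1 FPKM in brain with a median of 21.8 FPKM, and from 0.0487 to 0.790 FPKM in cerebellum with a median of 0.298 FPKM. Every brain library was above every cerebellum library (log2 difference 6.52, SE 0.423, adjusted p = 9.95e-12). *Kcnv1*, a silent modifier of Kv2 channels, ranged from 7.24 to 22.4 FPKM in brain and from 0.0496 to 0.412 FPKM in cerebellum, again without overlap (log2 difference 6.34, SE 0.321, adjusted p = 1.25e-12). *Kcnh3*, an Elk channel of the EAG family, ranged from 9.57 to 22.4 FPKM in brain and from 0.125 to 0.600 FPKM in cerebellum (log2 difference 5.91, SE 0.381, adjusted p = 9.14e-12). The modifier *Kcnf1* ranged from 10.2 to 17.5 FPKM in brain and from 0.283 to 0.893 FPKM in cerebellum (log2 difference 4.78, SE 0.285, adjusted p = 2.16e-12). Outside the nervous system it was not low, with 17.6, 11.4 and 8.03 FPKM in ovary, so that brain and ovary overlapped.

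*Kcnh5*, the EAG gene with the highest level, ranged from 15.4 to 23.9 FPKM in brain and from 1.34 to 4.41 FPKM in cerebellum. *Kcnt2*, a sodium-activated channel, ranged from 15.2 to 32.0 FPKM in brain and from 0.577 to 2.17 FPKM in cerebellum, and was 14.7, 11.1 and 14.0 FPKM in ovary.

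On the cerebellar side, *Kcng4*, a modifier of Kv2 channels, ranged from 18.9 to 40.2 FPKM in cerebellum and from 0.656 to 3.07 FPKM in brain (log2 difference -4.26, SE 0.422, adjusted p = 1.78e-08). *Kcnk10*, the mechanically and lipid-gated leak channel TREK-2, ranged from 10.6 to 24.1 FPKM in cerebellum and from 1.83 to 3.05 FPKM in brain (log2 difference -2.76, SE 0.23, adjusted p = 2.15e-09). *Kcnv2* was also called (log2 difference -3.39, SE 0.67, adjusted p = 0.000351), but at 0.0798 to 0.205 FPKM in cerebellum and at most 0.0381 FPKM in brain it was low in both.

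**Figure D2:**
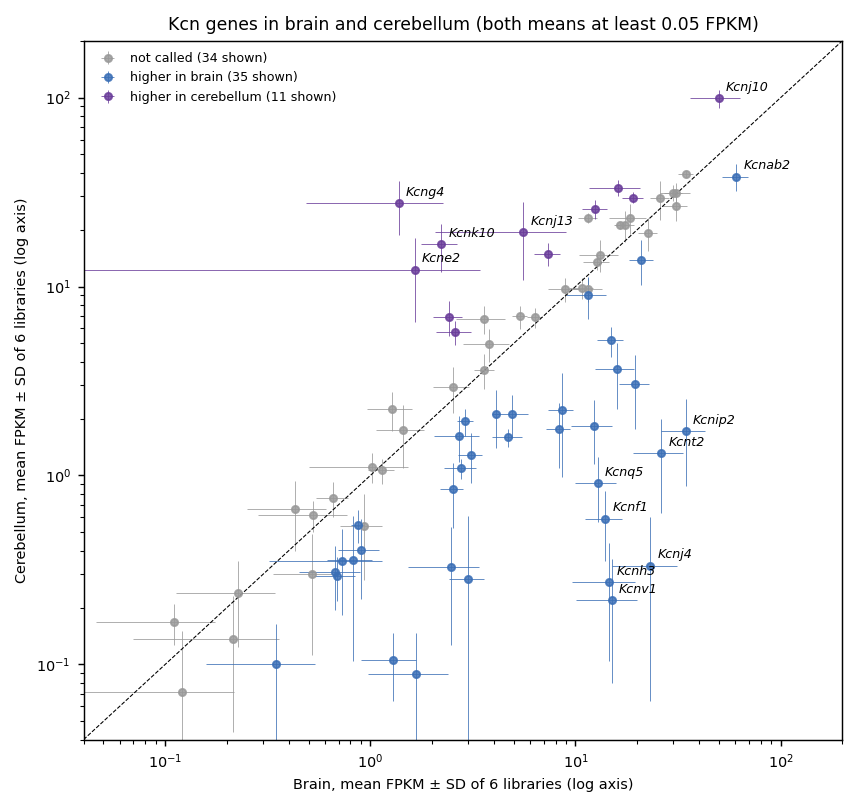
Mean FPKM in cerebellum against mean FPKM in brain (both log axes, n = 6 libraries each, bars SD) for 80 of the potassium channel genes with a mean of at least 0.05 FPKM in both tissues. The 35 plotted genes called higher in brain lie below the diagonal and the 11 called higher in cerebellum above it, with the remaining genes around the line.

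The Kv1 subunits *Kcna1* and *Kcna2* sit beside the nodes of myelinated axons, and whether they were called between these tissues depended on the setting. *Kcna1* ranged from 16.3 to 21.3 FPKM in brain and from 26.6 to 32.4 FPKM in cerebellum, a log2 difference of -0.50 (SE 0.173, adjusted p = 0.0329) that was no longer called when female brain replicate 2 or 3, male brain replicate 1 or 2, or replicate 1 or 3 of the female or the male cerebellum was left out. *Kcna2* ranged from 15.6 to 17.9 FPKM in brain and from 19.5 to 22.0 FPKM in cerebellum, without overlap, and the difference of -0.23 did not pass edgeR's test (SE 0.134, adjusted p = 0.241) but was called higher in cerebellum with DESeq2. Their beta subunit *Kcnab2* ranged from 51.2 to 75.3 FPKM in brain and from 30.2 to 45.7 FPKM in cerebellum and was higher in brain (log2 difference 0.80, SE 0.214, adjusted p = 0.00581). Exons of *Kcnab2* overlap a gene on the opposite strand.

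*Kcne2* and *Kcnj13* varied with choroid plexus markers. The accessory subunit *Kcne2* and the rectifier *Kcnj13* (Kir7.1) are both known from the choroid plexus, the epithelium that makes cerebrospinal fluid. *Kcne2* ranged from 0.0484 to 3.81 FPKM in brain and from 3.50 to 19.5 FPKM in cerebellum, and *Kcnj13* from 2.10 to 11.1 FPKM in brain and from 8.21 to 31.2 FPKM in cerebellum. Both were called higher in cerebellum (log2 difference -2.99, SE 0.616, adjusted p = 0.000616 for *Kcne2* and -1.73, SE 0.289, adjusted p = 4.77e-05 for *Kcnj13*), although the tissues overlapped. The summed FPKM of 5 choroid plexus markers, all above 0 in every brain and cerebellum library, was 24.95 to 1579 in brain and 1038 to 3926 in cerebellum. The 3 brain libraries with the lowest marker sums, female replicate 2 and male replicates 2 and 3, were also the 3 lowest for both genes, and male cerebellum replicate 1 had the lowest sum and the lowest level of both genes in cerebellum. The part of choroid plexus content in these differences was not tested.

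**Figure D3:**
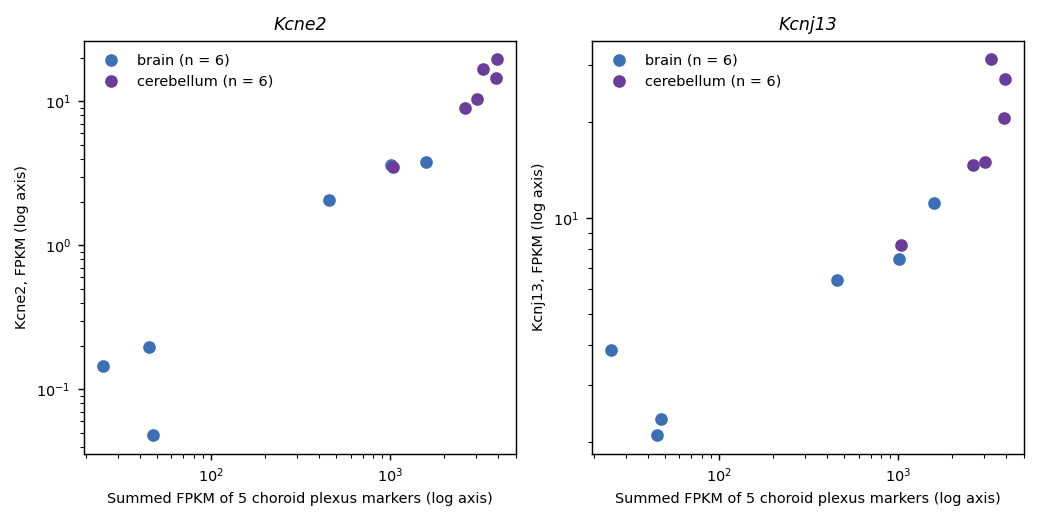
FPKM of *Kcne2* and *Kcnj13* in each of the 12 brain and cerebellum libraries against the summed FPKM of 5 choroid plexus markers (Ttr, Folr1, Kl, Clic6 and Otx2) in the same library, on log axes. In both panels the libraries with low marker sums are the libraries with low channel levels, and the cerebellum libraries lie to the upper right.

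Heart, colon, ovary and testis each were compared with every other tissue in turn, and a gene was called where it was higher at an adjusted p below 0.05 in all 5 tests. The log2 difference given is the one against the tissue with the next highest level. Of the 90 members, 11 (12.2%) were called in heart, where 6.95% of all genes tested were, 5 (5.56%) in colon, where 8.71% were, 1 (1.11%) in ovary, where 3.87% was, and 8 (8.89%) in testis, where 25.2% were. Among protein-coding genes tested, 9.33% were called in heart, 9.36% in colon, 4.83% in ovary and 23.6% in testis.

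The 11 heart genes included subunits of currents known to repolarise the cardiac action potential. They were the pore subunits *Kcnq1*, *Kcnh2*, *Kcna7*, *Kcnj2*, *Kcnj5*, *Kcnj11* and *Kcnk3*, the modifiers *Kcng2* and *Kcnv2*, and the accessory subunits *Kcne1* and *Kcnip2*. *Kcne1*, which joins *Kcnq1* in the slow delayed rectifier, was 3.82, 5.10 and 1.88 FPKM in the female hearts and 1.73 and 2.04 FPKM in the male hearts and at most 0.15 FPKM in any other library. Its difference was the widest of the 11, while *Kcnq1* was also expressed in colon and ovary (log2 difference of *Kcne1* against ovary 6.04, SE 0.77, adjusted p = 2.16e-06, and of *Kcnq1* against colon 1.18, adjusted p = 0.00049, with overlapping libraries). *Kcnh2*, the pore of the rapid delayed rectifier, was 8.19, 8.99, 7.76, 7.24 and 9.45 FPKM in the 5 hearts, above all other libraries (log2 difference against cerebellum 1.34, SE 0.249, adjusted p = 4.28e-05).

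*Kcnj5* encodes GIRK4, which pairs with GIRK1 (*Kcnj3*) in the channel that the vagus nerve opens in the atrium. *Kcnj5* was 11.8, 13.2 and 11.9 FPKM in the female and 13.7 and 15.5 FPKM in the male hearts, and at most 0.704 FPKM in every other library (log2 difference against colon 5.20, SE 0.369, adjusted p = 5.49e-12). *Kcnj3* was 8.22, 6.11 and 17.6 FPKM in the female and 7.99 and 8.40 FPKM in the male hearts, and 16.4 to 24.2 FPKM in brain. The highest heart value of *Kcnj3* was that of female replicate 3, the library with high atrial markers, whereas *Kcnj5* was level across the 5 hearts. Of the other GIRK genes, *Kcnj9* had at most 0.0261 FPKM in heart and was expressed in testis as well as in the nervous tissues.

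The ATP-sensitive channels split by tissue. *Kcnj11* (Kir6.2) was 21.6, 30.3 and 13.3 FPKM in the female and 21.7 and 27.5 FPKM in the male hearts, above all other libraries (log2 difference against cerebellum 2.38, SE 0.278, adjusted p = 3.89e-08). *Kcnj8* (Kir6.1) was highest in colon by FPKM, from 13.8 to 22.2 FPKM, followed by heart at 8.01 to 10.04 FPKM and ovary at 4.76 to 5.56 FPKM. Colon was not called above each other tissue for *Kcnj8* after TMM scaling and was called with the size factors of DESeq2. Of their regulatory subunits, *Abcc9* (SUR2) averaged 28.8 FPKM in heart and 17.1 FPKM in colon, and *Abcc8* (SUR1) 4.06 FPKM in heart. Both were called in heart.

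*Kcnip2* encodes KChIP2, the accessory subunit of the Kv4 channels of the transient outward current. It was 89.6, 96.2 and 36.1 FPKM in the female and 63.4 and 82.2 FPKM in the male hearts, from 24.9 to 44.5 FPKM in brain and from 1.00 to 3.26 FPKM in cerebellum. Female heart replicate 3 fell within the range of brain, and the other 4 hearts were higher (log2 difference against brain 1.61, SE 0.264, adjusted p = 8.09e-06, and 1.82 without that library). The pore subunits did not follow this order: *Kcnd2* was 3.29 to 5.18 FPKM in heart and 15.5 to 19.2 FPKM in brain, and *Kcnd3* was 0.738 to 1.06 FPKM in heart and 4.77 to 5.95 FPKM in brain. *Kcng2*, a modifier of Kv2 channels, was 9.29, 10.5 and 4.78 FPKM in the female and 11.8 and 12.9 FPKM in the male hearts and at most 0.957 FPKM elsewhere (log2 difference against brain 4.36, SE 0.293, adjusted p = 9.48e-13). *Kcnv2*, another modifier, was 1.29, 0.984, 0.660, 1.26 and 1.68 FPKM in the hearts (log2 difference against cerebellum 3.80, SE 0.513, adjusted p = 4.38e-07). *Kcnk3*, the leak channel TASK-1, was 22.2, 24.7, 19.4, 27.1 and 33.2 FPKM in the hearts and was the second highest member there. *Kcng2* and *Kcnk3* have exons under a gene on the opposite strand.

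Of the 22 members with at least 1 FPKM in heart, female replicate 3 was the lowest of the 5 hearts for 10 and the highest for 5. Without it, all 11 genes were still called, with larger log2 differences, and *Kcnn1* was added. With a block by the library code in the labels, *Kcna7* and *Kcne1* were no longer called (9 heart genes in place of 11, with an adjusted p of 1 for *Kcne1* against ovary). The part of atrial tissue in this library's values was not tested. The 4 other hearts had TMM factors of 0.604 to 0.712 and the ovaries of 1.30 to 1.45, so a log2 difference of heart against ovary was larger than the ratio of the FPKM values.

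Colon genes had smaller differences. *Kcnk6* (TWIK-2), a leak channel, ranged from 5.23 to 9.23 FPKM in colon with a median of 7.58 FPKM and was at most 1.98 FPKM elsewhere (log2 difference against heart 2.09, SE 0.195, adjusted p = 8.96e-10). *Kcnk5* (TASK-2), a leak channel of epithelia, ranged from 11.7 to 23.0 FPKM in colon with a median of 17.5 FPKM and was 6.64, 5.51 and 6.03 FPKM in ovary, without overlap (log2 difference 1.84, SE 0.219, adjusted p = 1.23e-07). *Kcnn4*, the intermediate-conductance calcium-activated channel, was called with overlapping libraries (log2 difference against ovary 1.38, SE 0.406, adjusted p = 0.00642).

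The last pair of colon genes was less steady. *Kcne4*, an accessory subunit, ranged from 2.31 to 6.14 FPKM in colon against 1.71, 2.23 and 2.26 FPKM in ovary (log2 difference 1.06, SE 0.368, adjusted p = 0.0198). *Kcnn3*, the small-conductance calcium-activated channel SK3, ranged from 4.17 to 7.70 FPKM in colon and from 2.67 to 3.66 FPKM in brain (log2 difference 0.56, SE 0.189, adjusted p = 0.0115). For both, the highest library was male colon replicate 1, and without it neither was called (3 colon genes in place of 5). *Kcne4* was also lost when female colon replicate 2 or 3, female gonad replicate 1 or male gonad replicate 1 or 2 was left out, and with a block by library code (4 colon genes each). *Kcnmb1*, the smooth muscle beta subunit of the large-conductance calcium-activated (BK) channel, was 10.4 FPKM in male colon replicate 1 and 3.44 to 7.32 FPKM in the other colons. The same library had the highest sum of 4 smooth muscle markers, 10470 FPKM against a colon median of 5403, and the part of muscle content in these values was not tested.

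Ovary had 1 called gene. *Kcnh6*, an Erg channel, was 5.12, 2.30 and 1.50 FPKM in ovary and 0.455 to 0.982 FPKM in brain, without overlap (log2 difference 1.67, SE 0.387, adjusted p = 0.000621). The 3 ovaries differed widely among themselves.

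Testis had 8 called genes. *Kcnu1* encodes Slo3, the pH-gated channel of sperm. It was 24.2, 25.9 and 21.2 FPKM in testis and at most 1.28 FPKM elsewhere (log2 difference against brain 4.92, SE 0.278, adjusted p = 2.48e-14). Its sperm partner *Lrrc52* averaged 15.7 FPKM in testis (range 13.5 to 18.0) and was called in testis as well. *Kcnmb3*, a BK beta subunit, was 1.52, 1.70 and 1.67 FPKM in testis and at most 0.145 FPKM elsewhere (log2 difference against ovary 5.03, SE 0.666, adjusted p = 1.45e-06), and the silent K2P gene *Kcnk7* was 1.03, 1.47 and 1.25 FPKM (log2 difference against brain 2.86, SE 0.631, adjusted p = 0.000245).

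The highest value of all, 359, 352 and 338 FPKM in testis for *Kcnk4* (TRAAK, a leak channel) against at most 3.37 FPKM elsewhere, belonged to an Iso-seq locus that joins *Kcnk4* with its neighbour *Catsperz*, a gene of a sperm calcium channel, and the reads of these genes cannot be told apart there (log2 difference 7.21, SE 0.235, adjusted p = 7.59e-19). *Kcne3* was 49.2, 52.7 and 45.5 FPKM in testis and 24.1 to 45.3 FPKM in colon, where it is known as the partner of *Kcnq1* in epithelium (log2 difference 0.89, SE 0.264, adjusted p = 0.00432). *Kcnmb4*, the neuronal BK beta subunit, was 59.0, 64.0 and 54.2 FPKM in testis and 23.5 to 36.4 FPKM in brain. *Kcnj9* (GIRK3) was 13.6, 12.2 and 14.5 FPKM in testis and 8.67 to 12.7 FPKM in brain, with overlap. It lost its call without male gonad replicate 3, and without the filter on low counts (7 testis genes in place of 8 each). Both *Kcnmb4* and *Kcnj9* share exon bases with genes on the opposite strand, and without members of that kind and *Kcnk4*, 5 testis genes remained.

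**Figure D4:**
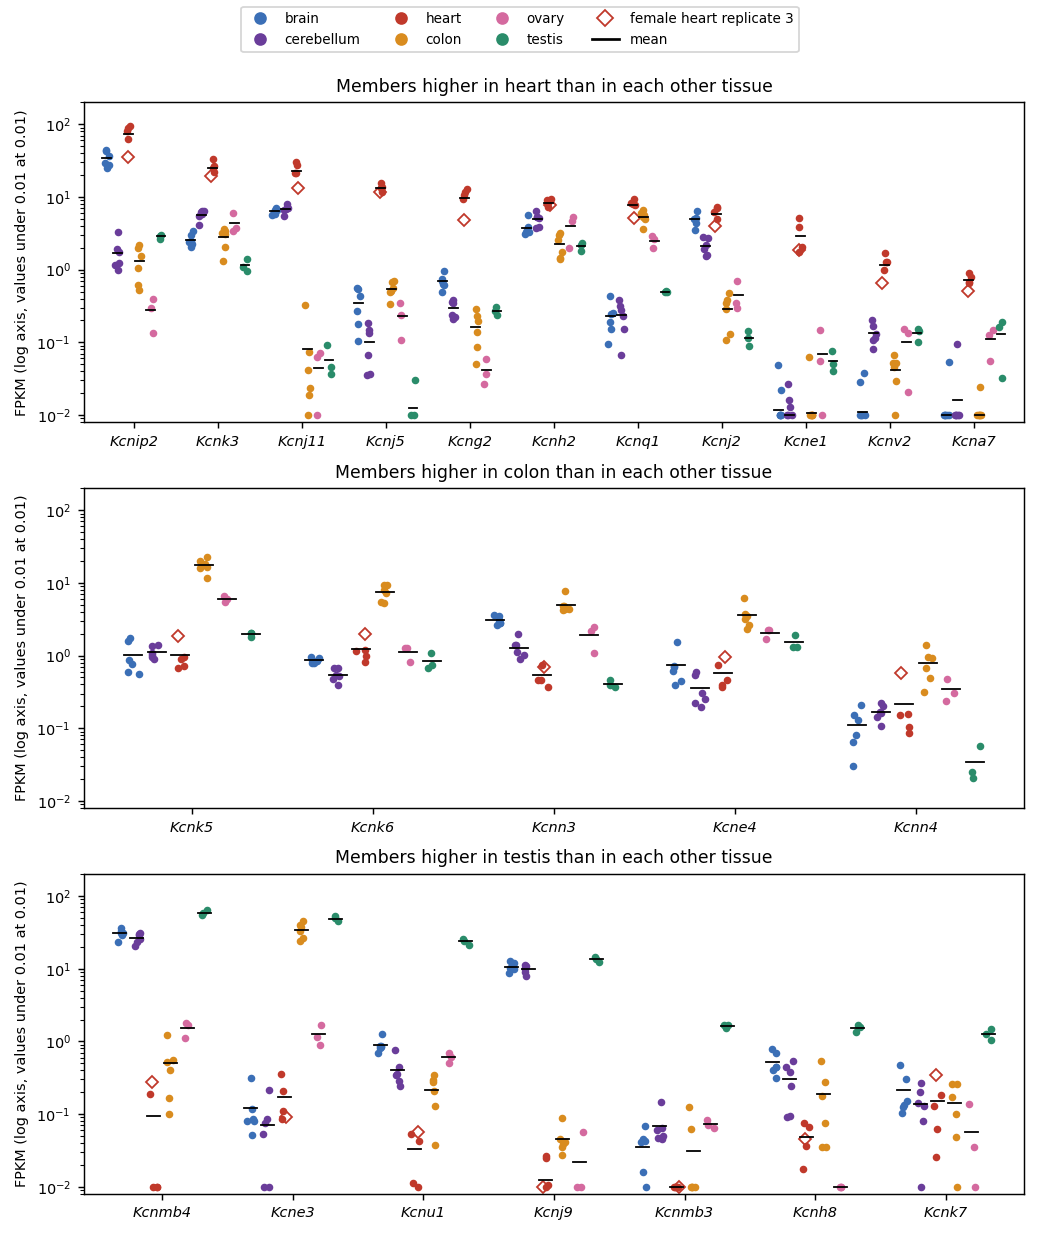
FPKM (log axis, values below 0.01 drawn at 0.01) of the potassium channel genes called above each other tissue in heart, colon and testis (*Kcnk4* left out), in every library of the 6 tissues, with a line at each tissue mean and female heart replicate 3 as an open diamond. Within each panel the named tissue stands above the others for most genes, with overlap for *Kcnip2*, *Kcnj2* and *Kcnq1* in heart, *Kcnn4* in colon and *Kcnj9* in testis.

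The BK channel and 3 other members were counted at a pair of Iso-seq loci each, a 5′ and a 3′ locus on the same strand, and the share of a gene's counts at the 3′ locus was compared between brain and other tissues in 12 tests, of which 1 passed. For *Kcnma1*, the BK pore subunit, the 5′ locus is chr14:23299395-23508054 and the 3′ locus chr14:23292295-23295983 (minus strand, mm10 coordinates of the deposited annotation). The 3′ share was 37.5% to 44.1% in brain and 34.8% to 46.4% in cerebellum, 8.07% to 12.7% in colon, 6.48%, 9.09% and 11.0% in ovary and 4.71% to 7.69% in testis. Brain and cerebellum did not overlap with colon, ovary or testis. The mean share was 40.0% ± 2.41 (SD, n = 6) in brain and 10.6% ± 1.66 (SD, n = 6) in colon, a difference of 29.4 percentage points (two-sided exact permutation test, p = 0.00216, adjusted p = 0.0259 over 12 tests). With any single brain or colon library left out the difference was 28.6 to 29.9 percentage points and the adjusted p 0.0519, the smallest that the exact test then allows beside the other 11 tests.

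*Kcna2* had a 3′ share of 35.5% in brain, 36.0% in cerebellum, 34.3% in colon and 7.72% in testis. The testis share rests on few reads, with 3, 4 and 4 counts at the 3′ locus and 34, 59 and 42 at the 5′ locus. With 3 testis or ovary libraries against 6 brain libraries the smallest p that the exact permutation test allows is 0.0238, and it was reached by *Kcna2* in testis and by *Kcnma1* in ovary and in testis (adjusted p = 0.0571). *Kcna1* averaged 66.2% in brain, 65.3% in cerebellum, 67.8% in heart and 65.9% in colon, and was not tested in testis, where it had 4 to 12 counts per library (mean share 47.2%), or in ovary, where it had 6 to 23 (mean share 60.8%). A 3′ locus can hold the end of the gene's own transcripts or a transcript of its own, and the counts do not separate these.

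**Figure D5:**
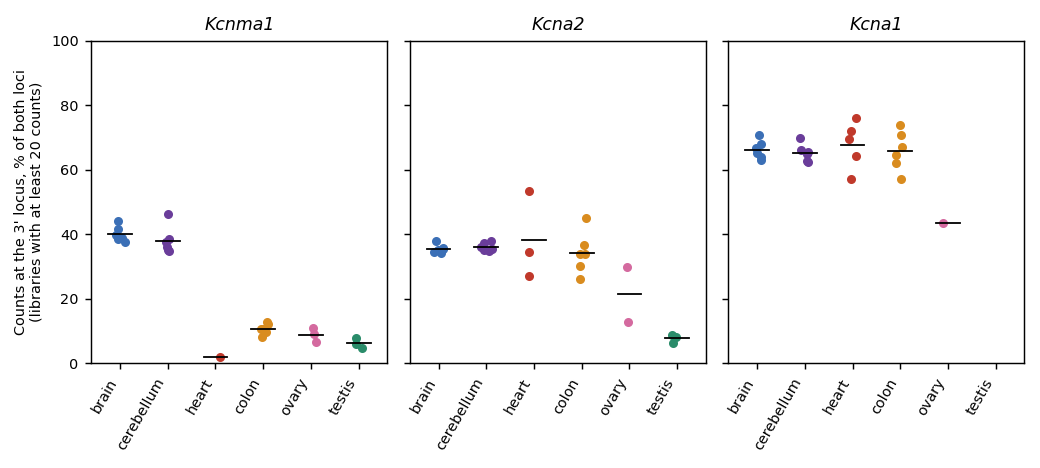
Percent of each gene's counts that fell in its 3′ Iso-seq locus, for *Kcnma1*, *Kcna2* and *Kcna1*, in each library with at least 20 counts over both loci, by tissue, with a line at the mean. *Kcnma1* averages 40.0% in brain and 10.6% in colon, *Kcna2* averages 35.5% in brain and 7.72% in testis, and the tissue means of *Kcna1* run from 65.3% to 67.8% in brain, cerebellum, heart and colon, with single libraries from 57.1% to 76.1% in heart. The testis libraries hold 37 to 63 counts of *Kcna2*.

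BK beta subunits differed between these tissues. *Kcnma1*, summed over both loci, was 19.0 to 25.2 FPKM in brain, 15.4 to 23.8 FPKM in cerebellum, 4.29 to 8.88 FPKM in colon and 5.53, 5.47 and 7.35 FPKM in ovary. *Kcnmb1* averaged 6.46 FPKM in colon and 4.40 FPKM in ovary and 0.526 FPKM in brain, *Kcnmb2* averaged 0.928 FPKM in brain and 0.964 FPKM in ovary, and *Kcnmb4* was highest in testis and brain. The smooth muscle beta subunit was thus higher in colon and ovary and the neuronal one in testis, brain and cerebellum. *Kcnmb4* had at least 20.3 FPKM in every brain and cerebellum library. Of its 1042 counted bases, 730 overlap genes on the opposite strand, so its levels could include their reads.

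Of 20 partner genes outside the symbol rule, a list put together by hand of Kv4 partners, SUR subunits, HCN channels and others, 17 were higher and 1 (*Abcc9*) lower in the nervous tissues, where 34.8% of all genes tested were higher and 27.5% lower. *Dpp6* and *Dpp10*, transmembrane partners of Kv4 channels, averaged 49.0 and 34.6 FPKM in brain, and the Kv2 partner *Amigo1* averaged 11.4 FPKM. In heart *Abcc8*, *Abcc9* and *Hcn4* were called, in colon *Lrrc26*, *Akap9*, *Nedd4l* and *Hcn3*, in testis *Lrrc52*, and in ovary none.

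No member passed the test for sex. Averaged over brain, cerebellum, heart and colon, 0 of the 90 members were higher in males and 0 in females by edgeR's quasi-likelihood test, where 0.0301% and 0.0736% of all genes tested were, and the sex difference varied between tissues for 0 members, where it did for 0.0167% of all genes. At an unadjusted p below 0.05 there were 5, 4 and 15 members. The smallest p belonged to *Kcnk5*, with a log2 difference male minus female of -0.55 (SE 0.129, adjusted p = 0.13). In brain it was 1.599, 1.72 and 0.857 FPKM in females and 0.558, 0.601 and 0.762 FPKM in males, without overlap, and in colon 16.6, 15.9 and 23.0 FPKM in females and 11.7, 19.8 and 18.4 FPKM in males, with overlap. *Kcnk5* was called higher in females with DESeq2 and when female brain replicate 3 was left out (1 gene in place of 0). A difference missing the threshold with 2 or 3 libraries per group does not show that the sexes were alike.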

How the data were processed

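Total RNA of adult mouse tissues was depleted of ribosomal RNA and sequenced from strand-specific libraries. The authors deposited raw counts of uniquely mapped reads per gene for all 29 RNA-seq libraries, on an annotation that merged their Iso-seq transcripts with ENSEMBL genes (mm10). The submitters' processing notes name HISAT2 2.0.5 and featureCounts 1.6.3. Whether reads were counted by strand is not given in the sources used here, and 17 of the 94 members have exons that overlap a gene on the opposite strand, so their counts could include its reads. The deposited coordinates of the transcript models and the deposited pairs of genes and Iso-seq loci gave the gene of each locus. The 6 Iso-seq flow cells entered only through this annotation. Of the columns with per-sample values, 0 were left unused.

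Groups came from the tissue and sex in the labels. Counts of the 4 members with a pair of loci were summed. FPKM was computed from the counts, the library total and the exon union of the deposited annotation. The counts were fitted with edgeR 4.0.16 (limma 3.58.1, R 4.3.3) as a quasi-likelihood model with a mean for each of the 10 groups, TMM scaling and the filterByExpr filter, with Benjamini-Hochberg adjustment over 29907 genes and a threshold of 0.05. Refits without a library reused the dispersion trend of the full fit. DESeq2 1.42.0, its size factors, no filter, replicate blocks, single loci and leaving out libraries or overlapping genes were alternatives. The script was tested on simulated data. Locus shares were compared by exact permutation tests (scipy 1.17.1). No pair of replicates held identical counts (0 of 28 pairs).

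The members, role classes, partner genes and marker lists were chosen with earlier results of these data known. In each comparison, up to 4 called members per direction with the largest log2 difference, no overlap between libraries and at least 1 FPKM were named, besides the leading member of each class and known subunit pairs. Other called members named were added after their values were seen. Some members that the rule names are not reported here. Replicate numbers were not used to pair the samples in the main fit. The mean correlation of deviations between same-numbered libraries was -0.0168 in females and 0.00963 in males. These values do not settle whether same-numbered libraries shared an animal.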

Additional observations from a re-analysis of the deposited data

How the results depend on the processing

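Across 29 refits that each left out 1 library, the number of called members ranged from 67 to 69 for higher in the nervous tissues, 11 to 14 for lower there, 34 to 37 for higher in brain, 12 to 16 for higher in cerebellum, 11 to 12 for heart, 3 to 6 for colon, 1 to 1 for ovary, 7 to 8 for testis, 0 to 0 for male-higher, 0 to 1 for female-higher and 0 to 0 for the interaction of sex and tissue. The 3 colon genes came without male colon replicate 1, and the 1 female-higher gene, *Kcnk5*, without female brain replicate 3. Over the other settings these counts were 56 to 69, 9 to 16, 30 to 37, 11 to 17, 8 to 12, 4 to 7, 1, 5 to 8, 0, 0 to 1 and 0. Testis fell to 5 without overlapping or joined genes, DESeq2 gave 1 female-higher gene, and with TMM-scaled library sizes ovary was the highest tissue of 2 members in place of 4. The counts of 56, 9, 30, 11, 8 and 5 came from leaving out overlapping or joined genes. That setting removes called members by construction, 3 of them in testis. The causes of the other changes were not tested.

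With the replicate number as a block, which the labels do not tie to animals, 36 members were called higher in brain, 15 higher in cerebellum and 6 in colon, and the other counts did not change. None of 30 female and 26 male same-numbered pairs correlated above 0.1. Of pairs whose library codes in the labels fell in the same decade, 4 of 27 female and 0 of 26 male pairs did, with mean correlations of 0.0313 and 0.00913, and with that code as a block the heart genes lost *Kcna7* and *Kcne1* (9 in place of 11), the colon genes *Kcne4*, the brain-higher genes *Kcne4* and *Kcnh1* and the nervous-higher genes *Kcnk18*. Of 910 alternative tests of the named genes (for a single tissue, against the next highest tissue), 906 kept the call and 4 lost it, *Kcne1* in heart with a block by library code, *Kcne4* in colon without male colon replicate 1 or female gonad replicate 1, and *Kcnn3* in colon without male colon replicate 1, and 0 changed direction. The 3′ locus shares had 131 alternatives, of which 12 lost the call, all of them *Kcnma1* in brain against colon, where 1 library left out puts the smallest adjusted p that the test allows at 0.0519 and the difference was 28.6 to 29.9 percentage points, and 1 gained it, *Kcnma1* in brain against cerebellum without female cerebellum replicate 3. With the size factors of DESeq2 the median log2 difference over all genes, nervous against other tissues, was -0.282 in place of -0.144, and that over the members 3.35 in place of 3.49. The 4 members that did not pass the filter were not tested.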

Other observations

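The 5 members with the highest levels in ovary were also expressed in brain. *Kcnab1*, a beta subunit of Kv1 channels, was 22.3, 13.7 and 13.1 FPKM in ovary, 24.4 to 35.8 FPKM in brain and at most 2.42 FPKM in heart, colon and testis. *Kcnip3*, a calcium-binding subunit of Kv4 channels, was 16.5, 15.8 and 13.4 FPKM in ovary and 24.9 to 33.2 FPKM in brain, against 0.387 to 0.800 FPKM in heart. *Kcnk2*, the mechanically gated leak channel TREK-1, was 15.5, 12.2 and 11.5 FPKM in ovary and overlapped with brain at 12.1 to 17.2 FPKM, while cerebellum had 4.16 to 6.58 FPKM. With *Kcnt2* and *Kcnf1* these 3 genes made up 43.3% of the summed ovary level. *Kcnab1*, *Kcnk2* and *Kcnt2* have exons under a gene on the opposite strand.

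*Kcnj16*, which encodes Kir5.1 and joins with Kir4.1 (*Kcnj10*) in glia, was 21.9 to 25.9 FPKM in cerebellum and 9.51 to 12.9 FPKM in brain, and at most 0.592 FPKM in any other library. The libraries of the 2 tissues did not overlap in FPKM, yet *Kcnj16* did not pass the test between them (log2 difference brain minus cerebellum -0.87, SE 0.346, adjusted p = 0.0662 by edgeR over all 29 libraries). It was called higher in cerebellum without the filter on low counts and when female gonad replicate 3 or male gonad replicate 1 or 2 was left out.

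*Kcnab2* had 18 Iso-seq transcripts, *Kcnk2* and *Kcnj9* 8 each and *Kcnu1* and *Kcng4* 7 each.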
